A study of Mus musculus with 4 samples.

Results

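The calbindins and neuronal calcium sensors followed here are 10 small calcium-binding proteins of neurons: *Calb1*, *Calb2*, *Pvalb*, *Necab1*, *Necab2*, *Hpca*, *Hpcal1*, *Ncald*, *Ncs1* and *Vsnl1*. Each was taken as the row of the expression table whose symbol equals its name, and all 10 were found among 24421 genes. They were chosen by measured values, since their RPKM in both genotypes was known when they were proposed. Their difference between the genotypes is therefore a description: the fit across all genes gives its size, its interval and whether it passed the thresholds, and no p is printed for it. The cells were GFP+ cells, purified by fluorescence-activated sorting from neural tubes of E11.5 mouse embryos. Every embryo carried *Prdm13* GFP, an allele in which GFP is knocked in and generation of PRDM13, a zinc finger repressor of the dorsal neural tube, is disrupted. *Prdm13* GFP/+ embryos, labelled Het, keep 1 intact allele, and *Prdm13* GFP/GFP embryos, labelled Homo, have none. GFP is made from the *Prdm13* locus, so the sort keeps cells by the activity of that locus, with 1 copy of GFP in Het and 2 in Homo. No wild-type cells enter the comparison, so the controls are themselves heterozygous. RNA of 7 Het embryos made 1 pool and RNA of 9 Homo embryos another, and 2 libraries were sequenced from each pool as technical replicates. All errors below therefore cover the libraries of a pool and not the spread between embryos.

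These proteins bind calcium through EF hands, helix-loop-helix motifs that hold the ion. Calbindin, calretinin and parvalbumin are encoded by *Calb1*, *Calb2* and *Pvalb*, are counted as calcium buffers, and are widely used to mark classes of interneurons, including those of the spinal dorsal horn. The neuronal calcium sensors change shape on binding calcium, and several expose a myristoyl group that carries them to membranes. The NECAB proteins join EF hands to a domain related to monooxygenases and are also used as markers of spinal neurons.

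Levels are given in RPKM, read counts scaled to exon length and library size, so they can be set side by side between genes. The libraries held 12102813 to 19250641 reads on genes, recovered from the RPKM steps, and 11774 to 11831 genes reached 1 RPKM. *Prdm13* itself stood at 120.4 ± 9.10 RPKM in Het and 317 ± 10.6 in Homo (mean ± SD, n = 2 libraries in each). Reads on any exon of the disrupted gene were counted, so its level checks neither the labels nor the loss of the protein. Markers of neurons and of progenitors were abundant in all libraries. The summed neuronal markers were higher in Homo, at 1839 to 1886 RPKM in Het and 2407 to 2500 in Homo, and the summed progenitor markers overlapped, at 2613 to 2637 and 2610 to 2713 RPKM. Dorsal inhibitory markers were called lower for 8 of 8 genes, with summed levels of 523.4 to 560.7 RPKM in Het and 99.5 to 105.7 in Homo. Dorsal excitatory markers were called higher for 7 of 7, from 30.4 to 33.3 RPKM in Het to 195 to 200.6 in Homo. Among 13 neuronal markers 4 were called higher and 1 lower. Of 11 markers of dorsal root ganglion neurons 4 were expressed and 3 of these were called higher, their sums going from 30.3 to 30.8 up to 59.2 to 59.5 RPKM. The defining genes *Runx1*, *Runx3* and *Scn10a* of that list stayed under 0.1 RPKM in every library. Neural crest and glial markers summed to 705.5 to 781 RPKM in Het and 696.4 to 700.2 in Homo, and 1 of their 4 expressed genes was called lower. Summed erythroid levels lay at 47.3 to 48.2 and 48.7 to 50.0 RPKM, endothelial at 2.25 to 3.0 and 2.80 to 3.26, and mesenchymal at 5.22 to 5.72 and 4.36 to 4.41. The part of these shifts in the levels below was not tested. In sorted bulk RNA, fewer cells of a type and less RNA per cell cannot be told apart.

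*Ncald*, *Hpca*, *Hpcal1*, *Vsnl1* and *Ncs1* encode close relatives that lay at different levels and differed in opposite directions between the genotypes. Their first 120 coding bases are shown because they let a reader see how far short reads can tell these genes apart. Capitals mark the bases that differ from *Ncald*, of which there are 28 in *Hpca*, 25 in *Hpcal1*, 27 in *Vsnl1* and 34 in *Ncs1*. The sequences start at the ATG and come from GENCODE vM21 transcripts on GRCm38, read 5′ to 3′ along the coding strand.

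Ncald: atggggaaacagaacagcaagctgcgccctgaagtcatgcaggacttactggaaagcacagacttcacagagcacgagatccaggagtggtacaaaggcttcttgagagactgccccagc

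Hpca: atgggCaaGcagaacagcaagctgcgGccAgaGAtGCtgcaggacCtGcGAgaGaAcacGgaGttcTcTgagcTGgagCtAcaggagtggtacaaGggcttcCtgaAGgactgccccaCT

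Hpcal1: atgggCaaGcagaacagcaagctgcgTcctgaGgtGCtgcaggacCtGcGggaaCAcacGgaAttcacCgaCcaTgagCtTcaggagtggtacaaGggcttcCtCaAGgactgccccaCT

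Vsnl1: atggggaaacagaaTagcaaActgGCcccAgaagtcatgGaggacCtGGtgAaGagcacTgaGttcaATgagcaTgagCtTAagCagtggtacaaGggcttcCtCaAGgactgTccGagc

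Ncs1: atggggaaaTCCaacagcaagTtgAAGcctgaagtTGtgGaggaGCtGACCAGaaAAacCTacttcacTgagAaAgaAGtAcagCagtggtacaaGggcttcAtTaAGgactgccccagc

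Over the whole coding sequences, *Hpca* and *Hpcal1* shared 86.1% of aligned bases, *Hpca* and *Ncald* 80.0%, and *Hpcal1* and *Ncald* 80.2%. *Vsnl1* shared 71.6 to 73.9% with these 3 genes, and *Ncs1* shared 64.2 to 65.9% with the other sensors. *Calb1* and *Calb2* shared 65.9%. Genes of different kinds reached as much, with *Calb1* and *Ncald* at 66.0%, *Calb2* and *Ncald* at 67.3% and *Pvalb* and *Necab2* at 78.3%. Shares of that size alone therefore do not mark relatives. Positions facing a gap are left out of these shares, which can raise them where lengths differ. This holds for *Pvalb* (333 coding bases) and *Necab2* (1170), whose transcripts share no identical run over 11 bases. The longest identical run between transcripts was 46 bases, between *Hpca* and *Ncald*, and between *Hpca* and *Hpcal1* it was 38 bases. How many reads mapped to more than 1 of these genes was not analysed here.

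The genes fell into those with a higher level in Homo, led by *Calb2* and *Ncald*, those lower in Homo, *Hpca* and on few reads *Vsnl1*, and those that differed by less than 1.5-fold. A gene entered the fit across all genes at a mean of 1 RPKM or more in either genotype, which held for 6 of the 10 and for 12046 genes in all. Called means that the adjusted p lay under 0.05 and that the levels differed 1.5-fold or more, which is 0.58 on the log2 scale. Among all genes 6.33% were called, 3.65% higher in Homo and 2.67% lower. *Calb2* and *Ncald* were called higher and *Hpca* lower, and since this contrast chose the genes, nothing is read from that count. *Hpca* met the filter on RPKM only through Het, where it is higher. The Het and Homo libraries did not overlap for any of the 6, with Homo above for 5 and below for 1. Of all genes tested, 62.1% did not overlap, 31.7% with Homo above and 30.3% with Homo below. *Calb1*, *Necab1*, *Vsnl1* and *Pvalb* were under the filter and are described from their reads.

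**Figure D1:**
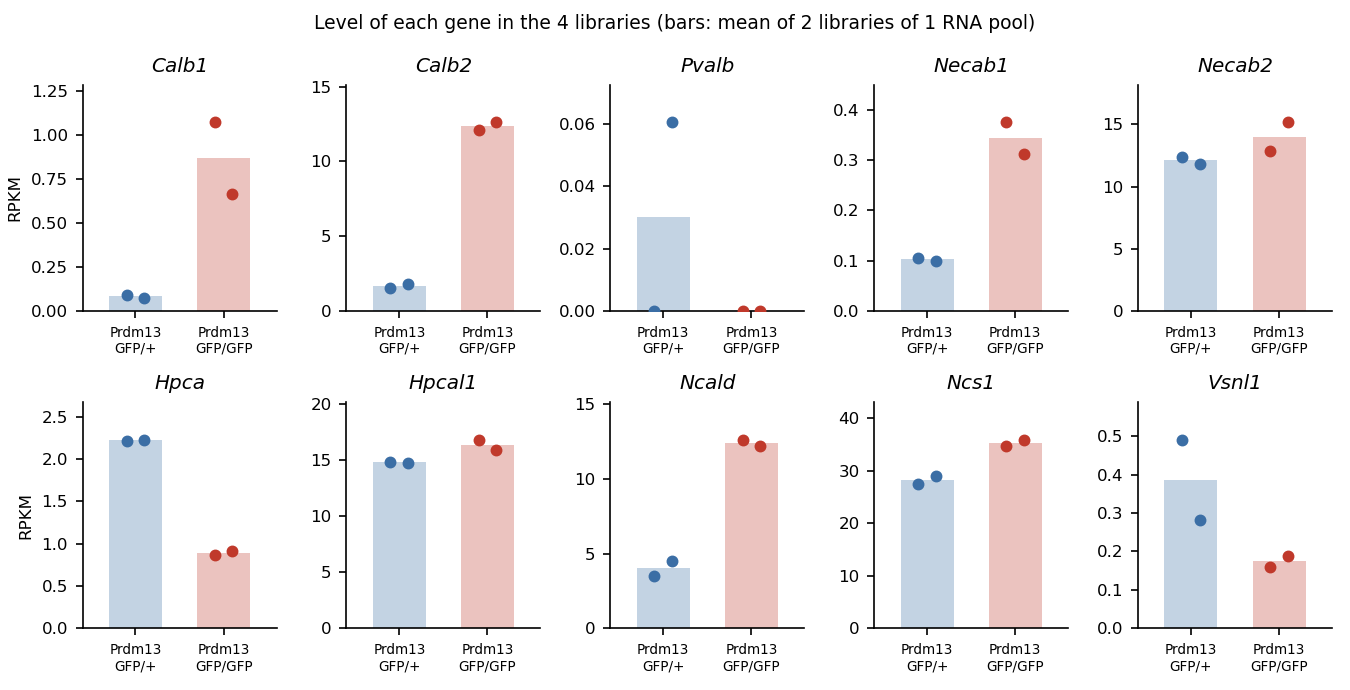
Level of each of the 10 genes in RPKM (vertical axis, starting at 0 and scaled per gene) in the 2 Prdm13 GFP/+ and 2 Prdm13 GFP/GFP libraries (points), with bars at the mean of 2 libraries of 1 RNA pool. Calb2 goes from 1.65 to 12.4 and Ncald from 4.01 to 12.4, Hpca goes from 2.22 to 0.894, and Ncs1, Hpcal1 and Necab2 each differ by 1.11 to 1.25-fold between the genotypes.

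Among the buffers, *Calb2* and *Calb1* were higher in Homo and *Pvalb* was near absent. *Calb2* (gene ID 12308), which encodes calretinin, lies at chr8:110142526-110168212 on GRCm38. Its level was 1.51 and 1.79 RPKM in the Het libraries and 12.1 and 12.6 RPKM in the Homo libraries, on 25, 47, 282 and 247 reads. Both Homo libraries were far above both Het libraries, and the libraries of a genotype lay close together. The means were 1.65 ± 0.20 and 12.4 ± 0.353 RPKM (SD, n = 2), a 7.49-fold higher level in Homo. On the log2(RPKM + 0.1) scale the difference was 2.84 with a standard error of 0.104 and a 95% interval of 2.59 to 3.09. *Calb2* ranked 28 from the highest of 12046 differences. By level, 8.15% of the tested genes lay below it in Het and 49.6% in Homo.

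*Calb1* (gene ID 12307, chr4:15881264-15906709), which encodes calbindin D28K, was low in every library. It stood at 0.0904 and 0.0761 RPKM in Het and at 1.07 and 0.663 RPKM in Homo. The Homo libraries were both above the Het libraries and differed from each other by more than the Het libraries did. The means were 0.0833 ± 0.0101 and 0.868 ± 0.290 RPKM (SD, n = 2), a 10.4-fold higher level in Homo. Recovered reads were 3 and 4 in Het and 50 and 26 in Homo. The ratio of reads per unit of depth was 10.8, with an exact 95% interval of 5.01 to 27.9 that covers counting error only. These reads are fixed only up to a common factor of 2, which leaves the ratio as it is and would narrow the interval. *Calb1* missed the filter on RPKM. Limma voom on recovered reads, a fit chosen after seeing the data, called 7.23% of its genes (3.91% higher, 3.32% lower). It gave *Calb1* a log2 difference of 3.22 with a standard error of 0.520. The voom fit took genes with at least 10 reads in a library, which *Calb1* reached only in Homo, where it is higher. Its voom value is therefore a description only.

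*Pvalb* (gene ID 19293, chr15:78191112-78206400), the parvalbumin gene, was listed at 0 in both Homo libraries and in 1 Het library. The other Het library held 0.0604 RPKM, which is 1 read. No fold can be given, and the depth shows only that the gene was near the limit of what these libraries detect. Summed over *Calb1*, *Calb2* and *Pvalb*, the buffers came to 1.6 and 1.93 RPKM in Het and to 13.2 and 13.3 RPKM in Homo, with *Calb2* as the main part in each library.

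The NECAB genes differed in level more than in genotype. *Necab2* (gene ID 117148, chr8:119446719-119472640) stood at 12.4 and 11.9 RPKM in Het and at 12.9 and 15.2 RPKM in Homo. The Homo libraries spanned more than the gap between the genotypes. Its means were 12.1 ± 0.362 and 14 ± 1.64 RPKM (SD, n = 2), a 1.16-fold difference. The log2 difference was 0.20 with a standard error of 0.0872 and an interval of -0.0043 to 0.41, and *Necab2* was not called.

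*Necab1* (gene ID 69352, chr4:14952245-15149804) was low throughout, at 0.105 and 0.0998 RPKM in Het and 0.375 and 0.312 RPKM in Homo. These values rest on 6 and 9 reads against 30 and 21, and the genotypes did not overlap. The level was 3.35-fold higher in Homo, and the ratio of reads per unit of depth was 3.40 with an exact 95% interval of 1.88 to 6.5. Voom on recovered reads gave a log2 difference of 1.69 with a standard error of 0.409. *Necab1* entered that fit only through its Homo reads, so this value too is a description only. Within a library, *Necab2* exceeded *Necab1* by 117.4 and 118.8 times in Het and by 34.3 and 48.6 times in Homo.

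Of the sensors, *Ncald* was higher in Homo and its relative *Hpca* lower, so that their ratio differed more between the genotypes than either level. *Ncald* (gene ID 52589, chr15:37366175-37792519) encodes neurocalcin delta, a sensor known to bind clathrin and to regulate guanylate cyclases. It stood at 3.50 and 4.53 RPKM in Het and at 12.6 and 12.2 RPKM in Homo, on 164, 336, 833 and 678 reads. Both Homo libraries lay above both Het libraries, and the Het libraries were the wider pair. The means were 4.01 ± 0.727 and 12.4 ± 0.291 RPKM (SD, n = 2), a 3.10-fold higher level in Homo. The log2 difference was 1.62 with a standard error of 0.121 and an interval of 1.33 to 1.91, and *Ncald* ranked 121 from the highest. By level, 21.3% of the tested genes lay below it in Het and 49.8% in Homo.

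*Hpca* (gene ID 15444, chr4:129111570-129125919) encodes hippocalcin, best known from hippocampal pyramidal cells, where it takes part in the slow afterhyperpolarization. Its level was 2.21 and 2.23 RPKM in Het and 0.871 and 0.916 RPKM in Homo, on 47, 75, 26 and 23 reads. The libraries of each genotype nearly coincided and the genotypes were well apart. The means were 2.22 ± 0.0123 and 0.894 ± 0.0317 RPKM (SD, n = 2), a 2.49-fold lower level in Homo. On the log2(RPKM + 0.1) scale the difference was -1.22 with a standard error of 0.169 and an interval of -1.63 to -0.82. *Hpca* ranked 130 from the lowest, and the ratio of reads per unit of depth, Het over Homo, was 2.49 with an exact 95% interval of 1.78 to 3.55. Within a library, *Ncald* exceeded *Hpca* by 1.58 and 2.03 times in Het and by 14.5 and 13.4 times in Homo.

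*Hpcal1* (gene ID 53602, chr12:17690750-17791944) is the gene nearest to *Hpca* in coding sequence among the 10. Its libraries read 14.8 and 14.7 RPKM in Het and 16.8 and 15.9 RPKM in Homo. The means of 14.8 ± 0.0823 and 16.4 ± 0.637 RPKM (SD, n = 2) differed 1.11-fold. The log2 difference of 0.15 had a standard error of 0.0576 and an interval of 0.0086 to 0.28, and *Hpcal1* was not called. *Hpcal1* exceeded *Ncald* by 4.24 and 3.25 times in the Het libraries and by 1.33 and 1.30 times in the Homo libraries.

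*Vsnl1* (gene ID 26950, chr12:11325257-11436578) encodes visinin-like 1, a sensor of mature neurons. It stood at 0.491 and 0.282 RPKM in Het and at 0.159 and 0.189 RPKM in Homo, on 11, 10, 5 and 5 reads. Both Homo libraries were below both Het libraries, but each value rests on 11 reads or fewer. The ratio of reads per unit of depth, Het over Homo, was 2.1 with an exact 95% interval of 0.948 to 5.0, which includes equal levels. Voom on recovered reads gave a log2 difference of -0.97 with a standard error of 0.521 and did not call *Vsnl1*. The gene entered that fit only through its Het reads, where it is higher.

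*Ncs1* (gene ID 14299, chr2:31245708-31295989), the sensor that binds phosphatidylinositol 4-kinase and the dopamine D2 receptor, had the highest level of the 10 genes in every library. It stood at 27.4 and 29.0 RPKM in Het and at 34.7 and 35.9 RPKM in Homo, on 1280, 2146, 2276 and 1983 reads. The genotypes did not overlap, and the gap between them was wider than the spread in either. The means were 28.2 ± 1.14 and 35.3 ± 0.874 RPKM (SD, n = 2), a 1.25-fold higher level in Homo. The log2 difference was 0.32 with a standard error of 0.0545 and an interval of 0.19 to 0.45, and since this is under 1.5-fold *Ncs1* was not called.

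**Figure D2:**
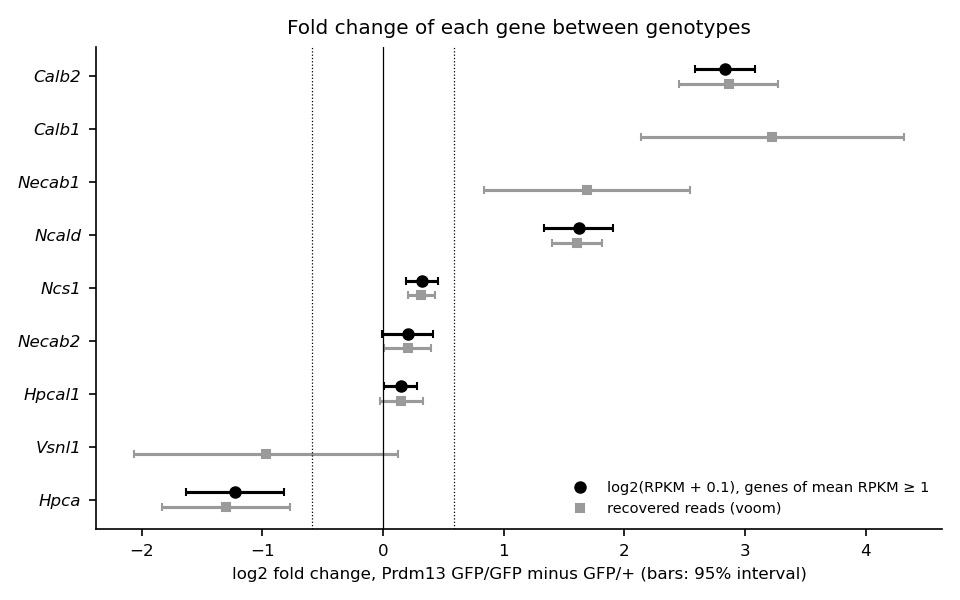
Log2 fold change of each gene, Prdm13 GFP/GFP minus Prdm13 GFP/+ (horizontal axis), with 95% intervals. Black points are the fit on log2(RPKM + 0.1), grey squares limma voom on recovered reads, and dotted lines mark 1.5-fold. Calb2 (2.84), Ncald (1.62) and Hpca (-1.22) lie beyond them on the black points, while Ncs1, Necab2 and Hpcal1 lie between them. Calb1, Necab1 and Vsnl1 entered the voom fit only through the genotype where each is higher.

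Set in order, the levels in Het ran from *Ncs1* through *Hpcal1*, *Necab2*, *Ncald*, *Hpca*, *Calb2*, *Vsnl1*, *Necab1* and *Calb1* down to *Pvalb*. The libraries of neighbours did not overlap, but *Necab1*, *Calb1* and *Pvalb* rest there on 9 reads or fewer per library. The order of these low genes is therefore loosely fixed. In Homo the first 4 genes kept the order of Het and *Calb2* came next. There *Ncald* and *Calb2*, at 12.4 RPKM each, overlapped between libraries, as did *Hpca* at 0.894 and *Calb1* at 0.868 RPKM. *Necab1*, *Vsnl1* and *Pvalb* followed. The 10 genes together came to 62.5 and 64.7 RPKM in Het and to 91.6 and 94.0 RPKM in Homo. *Ncs1* made up 43.8 and 44.9% of that sum in Het and 37.9 and 38.2% in Homo, and *Calb2* 2.41 and 2.77% against 13.2 and 13.4%. The 5 sensors alone summed to 48.5 and 50.8 RPKM in Het and to 65.2 RPKM in each Homo library. The summed neuronal markers, given above, were also higher in Homo, and their part in these sums was not tested.

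The wider calcium machinery was read from 7 lists of 100 genes, of which 54 were expressed at the filter. Of these 54, 9 were called higher and 3 lower in Homo, or 22.2% against 6.33% of all genes tested (3.65% higher, 2.67% lower), with a median log2 difference of 0.122 against 0.0104 over all genes tested. The lists were drawn up with earlier results of these data known, so the share is a description. Of the genes called, *Pcp4* and *Camk2a* met the filter only through Homo and *Drd2* only through Het, the genotype where each is higher. The adjusted p-values are from limma with adjustment over all 12046 genes. They rest on 2 libraries of 1 pool per genotype and, like the share, are a description only.

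The calmodulins, the general calcium sensors of the cell, were called in neither direction. *Calm2*, the highest of them, stood at 475 ± 36.1 RPKM in Het and 527 ± 36.1 in Homo (SD, n = 2), a log2 difference of 0.15 (adjusted p = 0.183). In limma 2 of the 3 expressed calmodulin genes were higher at an unadjusted p under 0.05, and voom called 0. Among 5 expressed sensors and calcium-binding proteins outside the 10 genes, *Cabp1*, a calmodulin-like regulator of calcium channels, fell from 22.4 ± 0.874 to 7.33 ± 1.97 RPKM (log2 difference -1.63, SE 0.163, adjusted p = 0.00136). Its relative *Cabp7* rose from 2.00 ± 0.0368 to 4.04 ± 0.386 RPKM (0.97, SE 0.117, adjusted p = 0.00282). *Kcnip1*, which encodes a sensor that assembles with Kv4 potassium channels, rose from 1.13 ± 0.0451 to 2.16 ± 0.335 RPKM (0.88, SE 0.179, adjusted p = 0.0187). Of 3 expressed S100 genes, *S100a10*, the partner of annexin A2, rose from 3.05 ± 0.757 to 8.64 ± 0.0352 RPKM (1.49, SE 0.156, adjusted p = 0.0016). *S100a11*, the highest of that list, stood at 7.98 ± 0.108 and 9.30 ± 1.87 RPKM, and its libraries overlapped between the genotypes.

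Among 19 expressed effectors of calmodulin, 4 were called higher and 1 lower. *Pcp4*, a small protein that speeds the exchange of calcium on calmodulin, read 0.135 and 0.936 RPKM in Het and 4.80 and 5.47 RPKM in Homo (log2 difference 3.41, SE 0.615, adjusted p = 0.0124). The first Het value is 1 read and the other 11 reads, so the size of this difference is loosely fixed. *Nrgn*, which encodes neurogranin, another calmodulin-binding protein, fell from 6.98 ± 0.699 to 2.15 ± 0.0793 RPKM (-1.65, SE 0.105, adjusted p = 0.000194). The kinase genes *Camk1g* (0.77, SE 0.109, adjusted p = 0.00507), *Camk2a* (0.76, SE 0.190, adjusted p = 0.0364) and *Camkk1* (0.71, SE 0.0945, adjusted p = 0.00415) rose. *Ppp3r1*, the regulatory subunit of calcineurin, had the highest level of the list and stood at 45.6 ± 1.68 and 47.4 ± 2.90 RPKM.

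Of 9 expressed pumps and exchangers, which move calcium out of the cytosol, 2 were called higher. *Slc8a2*, a sodium-calcium exchanger, rose from 24.9 ± 2.76 to 57.7 ± 3.03 RPKM (log2 difference 1.21, SE 0.0831, adjusted p = 0.000272). *Atp2b4*, a plasma membrane calcium pump, rose from 4.21 ± 0.151 to 6.76 ± 0.0767 RPKM (0.67, SE 0.0769, adjusted p = 0.00227). *Atp2a2*, the pump of the endoplasmic reticulum, stood at 78.3 ± 1.90 and 78.2 ± 0.608 RPKM. Of 12 expressed genes of the calcium stores, limma and voom each called 0, and in limma 3 were higher and 1 lower at an unadjusted p under 0.05. *Calr*, the store's abundant calcium-binding chaperone, stood at 264.5 ± 2.87 and 309.8 ± 5.90 RPKM (0.23, adjusted p = 0.0122), which is under 1.5-fold. Among known binding partners of the 10 genes' products, *Drd2*, the dopamine D2 receptor that NCS1 binds, fell from 2.35 ± 0.563 to 0.956 ± 0.117 RPKM (-1.20, SE 0.217, adjusted p = 0.0124). *Ric8*, the older symbol of *Ric8a*, an exchange factor for G proteins that NCS1 also binds, stood at 19.5 ± 0.116 and 23.1 ± 0.805 RPKM and was not called.

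**Figure D3:**
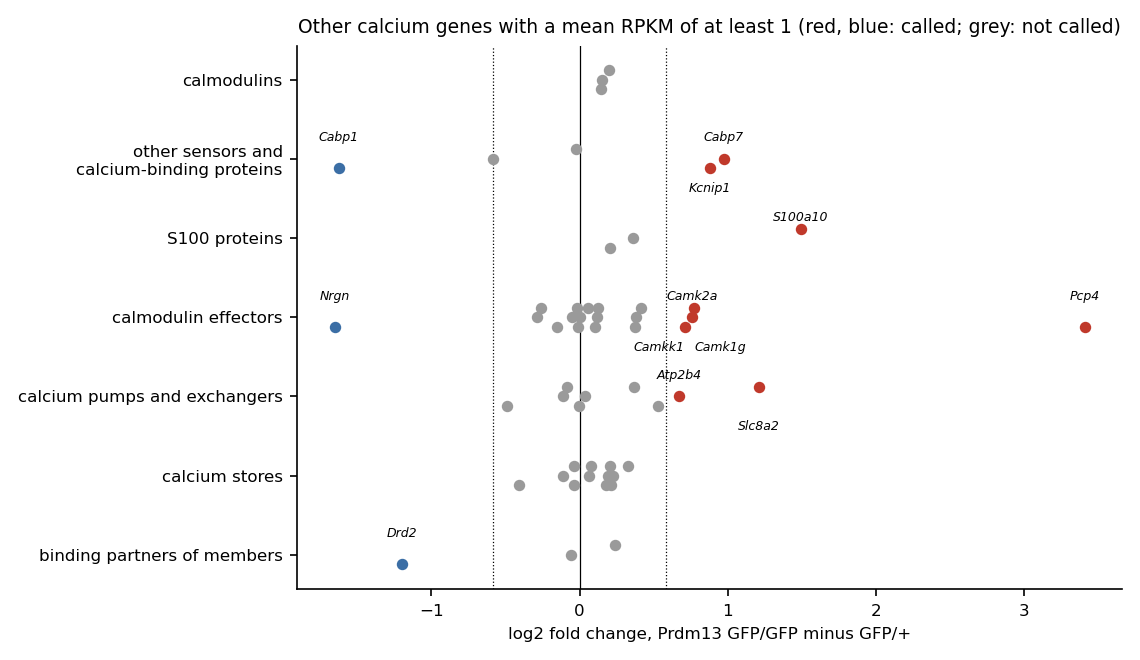
Log2 fold change, Prdm13 GFP/GFP minus Prdm13 GFP/+ (horizontal axis), of the 54 other calcium genes tested, by list (rows; the height within a row only spreads the points). Red points were called higher, blue lower, grey not called, and dotted lines mark 1.5-fold; the 12 called genes are named, and calmodulins and calcium stores hold none.

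For each of the 3 genes called, the 5 tested genes nearest in pattern were found by Euclidean distance between profiles of log2(RPKM + 0.1), each centred over the 4 libraries. The measure carries little beyond the size and direction of the difference, since 4 libraries of 2 pools are compared. Nearest to *Calb2* were *Hip1r* (distance 0.0968), *Fibcd1* (0.121), *Capn11* (0.148), *Ccbe1* (0.157) and *Tuba1c* (0.237), with log2 differences of 2.74 to 2.95. *Hip1r* stood at 5.69 ± 0.369 and 43.1 ± 1.21 RPKM, above *Calb2* in both genotypes. Nearest to *Ncald* were *Atoh8* (0.0568), *Sox8* (0.122), *Prkch* (0.126), *Pou3f1* (0.141) and *Cpne2* (0.148). *Atoh8*, a bHLH transcription factor, stood at 2.11 ± 0.332 and 6.81 ± 0.274 RPKM, and its Het libraries differed in the same sense as those of *Ncald*. Nearest to *Hpca* were *Sall4* (0.0429), *Slc7a5* (0.082), *Brinp1* (0.0993), *Sesn2* (0.0995) and *Asns* (0.1). *Slc7a5*, an amino acid transporter, stood at 32.7 ± 0.173 and 13.4 ± 0.137 RPKM, far above *Hpca* in both genotypes.

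**Figure D4:**
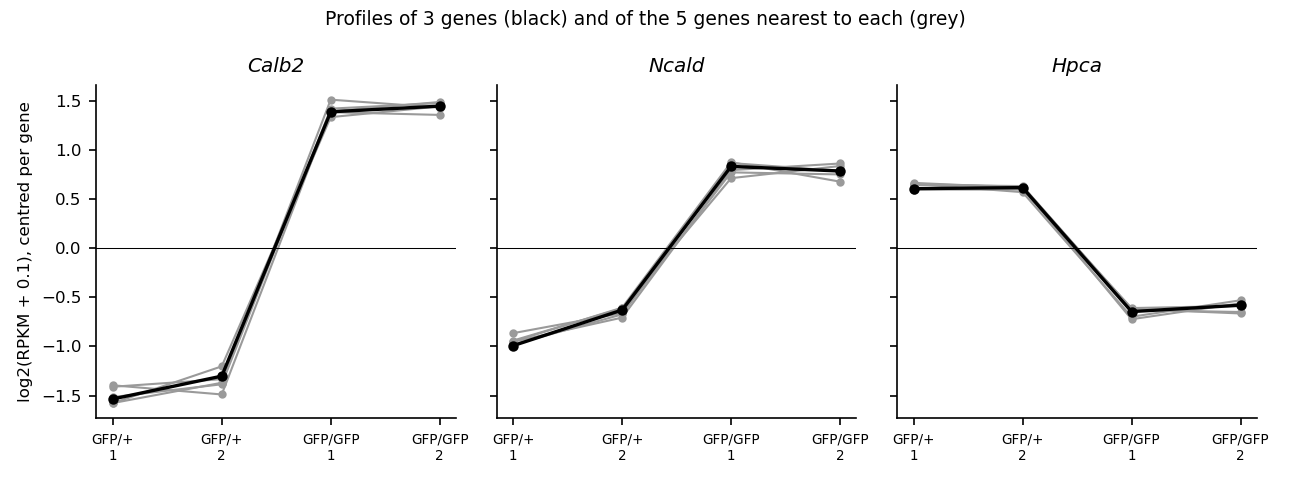
Profiles over the 4 libraries (horizontal axis, genotype and replicate) of log2(RPKM + 0.1) centred per gene (vertical axis) for Calb2, Ncald and Hpca (black) and the 5 genes nearest to each (grey). The grey lines follow the black line in each panel, upward in Homo for Calb2 and Ncald and downward for Hpca.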

How the data were processed

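RNA-seq of 2 *Prdm13* GFP/+ and 2 *Prdm13* GFP/GFP libraries was analysed. The authors aligned reads to mm10 with TopHat2 2.1.0, counted them on exons of RefSeq genes with featureCounts, scaled them by TMM in edgeR 3.6.8 and deposited RPKM for 24421 genes. Whole reads were recovered from the RPKM steps for 99.8% of genes above 0, where every library lay within 0.05 reads of a whole number. The solved exon length was within 5% of the annotated one for 72.4% of those with an annotated length. For the others a common factor in the reads was not excluded.

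The 12046 genes whose mean reached 1 RPKM in Het or Homo were tested on a log2(RPKM + 0.1) scale in limma 3.58.1 (R 4.3.3; lmFit, eBayes with trend; two-sided, Benjamini-Hochberg); this scale understates changes of low genes. An exact permutation test of 2 against 2 libraries cannot go below 0.333. Tables and plots used Python 3.11.15, scipy 1.17.1 and matplotlib 3.10.9. Coordinates are RefSeq on GRCm38.

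The members and lists were chosen with earlier results of these data known. Named were the 10 members, per calcium list up to 6 called genes and the highest, and the 5 genes nearest to each called member. The symbol *Ric8a* was matched by gene ID after values were seen. Alternatives were other pseudocounts, filters, scalings and tests, the replicate number as a block and leaving out each library.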

Additional observations from a re-analysis of the deposited data

How the results depend on the processing

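All values compare 2 RNA pools. Of 89 values of the 6 tested members under alternatives, 86 kept their direction and side of the threshold and 3 fell short of it, those of *Calb2*, *Ncald* and *Hpca* without a filter on RPKM. That setting called 30 genes higher and 14 lower in limma, with 0 of the members and 0 of the other calcium genes among them. At an unadjusted p under 0.05 and 1.5-fold in limma, 690 of all 24421 genes were higher there and 517 lower. Of the 10 members 4 were then higher and 1 lower, and since this contrast chose them, nothing is read from that count. Of the 100 other calcium genes, 10 were then higher and 4 lower. Voom was not run without a filter. At a mean of 1 RPKM or more it called 814 genes, among them 3 members and 13 other calcium genes. At a mean RPKM of at least 5, 249 genes were called higher and 153 lower, 5 other calcium genes were called higher, and 0 members were called lower because *Hpca* missed that filter. Limma voom with at least 10 reads in a library, chosen after seeing the data, called 4 members higher (*Calb1*, *Calb2*, *Necab1* and *Ncald*) and 7 other calcium genes lower. *Calb1* and *Necab1* reached 10 reads only in Homo, where they are higher, so nothing is read from their calls. *Vsnl1*, not called, reached 10 reads only in Het, and the differences of these genes in that fit are a description only. Leaving out each library gave 258 to 437 genes higher and 212 to 266 lower, both lowest without Homo replicate 2, 2 to 3 members higher and 1 lower, and 5 to 7 other calcium genes higher, 5 without either Homo library, and 2 to 3 lower. The log2 difference then ran from 2.72 to 2.95 for *Calb2*, 1.44 to 1.80 for *Ncald*, -1.26 to -1.19 for *Hpca* and 0.086 to 0.32 for *Necab2*. Same-numbered libraries share only a number, and their deviations correlated at 0.0475 over 12046 genes, so no pairing was assumed; with the replicate block 459 genes were called higher and 342 lower, and of the members 2 and 1. Depth limits *Calb1*, *Necab1*, *Vsnl1* and *Pvalb*.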
